A study of Mus musculus with 8 samples.

Results

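The miRNAs described here are the 4 strands on the array that come from the muscle hairpins of miR-1 and miR-133, namely mmu-miR-1, mmu-miR-133a, its opposite strand mmu-miR-133a* and mmu-miR-133b, written below without the species prefix. They were taken by name from the 567 mouse miRNAs on the array and were read by 8 of its 1672 probes. The samples were total RNA of mouse skeletal muscle, 100 ng per array, on 8 Agilent miRNA arrays read in 1 colour (Cy3), of which 4 were diabetic and 4 control. The design text gives C57BL/KsJ db/db mice, which are obese and diabetic, and C57BL/KsJ db+ mice as controls, while the strain entry of each sample gives the opposite genotype to its title, description and group entry. Directions below follow the titles. The db/db mouse carries its leptin receptor defect in all tissues, so its obesity and its diabetes come together. Age, sex, the muscle sampled and whether each array holds a separate animal are not given in the sources used here, so p-values measure the spread between these arrays, which may be technical. The diabetic arrays lay in slide row 2 and the control arrays in slide row 1 of 1 slide, so row and group cannot be told apart.

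A miRNA is cut from a hairpin RNA, and the strand that is kept guides a silencing complex to messenger RNAs that pair with its seed. miR-1 and miR-133 hairpins are transcribed together from shared primary transcripts that are switched on in skeletal and heart muscle by MyoD, MEF2 and serum response factor. In cultured muscle cells miR-1 is known to favour differentiation, in part by repressing the histone deacetylase HDAC4, and miR-133 to favour proliferation of myoblasts by repressing serum response factor. miR-133a and miR-133b share a seed, as do miR-1 and miR-206, a muscle miRNA whose hairpin is transcribed with that of miR-133b.

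The RefSeq tables (GRCm38.p6) gave a mature sequence for 1 of the 4, miR-133b, at chr1:20682834-20682855 on the plus strand. It is shown for the seed that miR-133a and miR-133b share, and miR-206 (chr1:20679055-20679076, plus strand) because it carries the seed of miR-1. Capitals mark the seed, bases 2 to 8 from the 5′ end.
miR-133b: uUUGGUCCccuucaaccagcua
miR-206: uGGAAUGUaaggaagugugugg
The Mir133b hairpin (chr1:20682769-20682887, plus strand) shows how 1 precursor gives 2 opposite strands, the arrangement behind the comparison of miR-133a* with miR-133a below. Its 2 mature arms are in capitals.
Mir133b hairpin: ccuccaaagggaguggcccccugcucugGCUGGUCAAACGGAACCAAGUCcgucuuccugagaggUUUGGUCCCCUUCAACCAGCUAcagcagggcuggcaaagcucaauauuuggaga

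In the GRCm38.p6 gene table Mir1a-1 and Mir133a-2 lie inside the long noncoding RNA gene Mir1a-1hg on chromosome 2, and Mir206 and Mir133b inside the long noncoding RNA gene Lincmd1 on chromosome 1. The starts of these host genes are shown, 250 bases before to 50 after, because the strands that share a host are compared below. Capitals mark matches, on either strand, to the E-box CAGCTG, to TATAAA and to the MEF2 consensus.
Mir1a-1hg: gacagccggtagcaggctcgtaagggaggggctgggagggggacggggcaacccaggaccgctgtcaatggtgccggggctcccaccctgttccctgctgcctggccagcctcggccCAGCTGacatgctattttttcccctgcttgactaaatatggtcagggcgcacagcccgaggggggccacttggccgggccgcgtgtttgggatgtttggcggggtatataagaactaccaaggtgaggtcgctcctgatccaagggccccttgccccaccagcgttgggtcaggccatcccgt
Lincmd1: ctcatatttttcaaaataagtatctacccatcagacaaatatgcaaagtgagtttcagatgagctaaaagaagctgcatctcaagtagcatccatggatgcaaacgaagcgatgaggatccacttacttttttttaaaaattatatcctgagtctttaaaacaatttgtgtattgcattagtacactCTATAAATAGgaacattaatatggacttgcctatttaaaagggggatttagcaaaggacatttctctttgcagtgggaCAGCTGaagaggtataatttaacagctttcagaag
Mir1a-1hg (chr2:180385354-180385653, plus strand) held 1 CAGCTG, and Lincmd1 (chr1:20669632-20669931, plus strand) held 1 CAGCTG and 1 MEF2 match, which contains its TATAAA. Of 32544 distinct windows of this length in the table, 16.4% held CAGCTG, 13.6% TATAAA and 3.16% the MEF2 consensus. The CArG box of serum response factor matched neither window, and 1.64% of all windows. These are matches of letters and not shown binding sites.

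All 4 miRNAs were detected on all 8 arrays, and every one of the 588 spots used for them was well above background. Of their 640 spots on the 8 arrays, 52 were left out as outliers, and none was saturated. The coefficient of variation between spots of a probe had a median of 6.10% and a highest value of 23.9%. As a check of the tissue label, 5 of 7 skeletal muscle marker miRNAs were detected on all 8 arrays and miR-499 was detected on none. Of these 5, 3 are the strands described here (miR-1, miR-133a and miR-133b), so the check beyond them rests on miR-206 and miR-486, 2 of the 4 other markers. The neural markers miR-124 and miR-9 were detected on none, and the liver markers miR-122 and miR-192 on some. The brightness of an array, taken as log2 of the intensity at the 75th percentile of the probes used for scaling, ran from 7.78 to 8.91 on the diabetic arrays and from 8.27 to 9.27 on the control arrays. Diabetic 4 was the dimmest and control 2 the brightest of the 8, and both recur below.

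The 4 strands together took 46.2% to 56.3% of the mouse miRNA signal of an array, as the scanner's background-subtracted intensities give it. Their summed share was 53.9 ± 1.91% on the diabetic arrays and 51.5 ± 3.75% on the control arrays (SD, n = 4). A share of intensity is not a share of molecules, because probes differ in how brightly they report. On the diabetic arrays the sum ran from 51.9% to 56.3%, and on the control arrays from 46.2% on control 2 to 54.9% on control 1, so the groups overlapped. The size of the share depended on the processing. The normexp alternative started from raw medians and added an offset of 50 to each value, which also enters the total. The parts of the background correction and of the offset in this change were not tested. With normexp the sum was 34.7 ± 2.66% on the diabetic arrays and 32.9 ± 1.48% on the control arrays (SD, n = 4). The diabetic arrays then ran from 31.6% to 38.0% and the control arrays from 30.9% to 34.4%. Diabetic 4 had the highest sum of the 8 in the reported processing and the lowest of the diabetic arrays with normexp.

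miR-133b took 20.7 ± 2.09% of the signal on the diabetic arrays and 20.8 ± 2.33% on the control arrays. For miR-1 the share was 17.9 ± 1.70% on the diabetic arrays and 15.4 ± 1.84% on the control arrays. miR-133a held 13.4 ± 1.19% on the diabetic arrays and 13.8 ± 2.23% on the control arrays. These 3 guide strands therefore made up nearly all of the sum. The opposite strand miR-133a*, the one usually discarded from its hairpin, took 1.93 ± 0.18% on the diabetic arrays and 1.49 ± 0.30% on the control arrays. Shares of miR-1 and of miR-133a* had the higher mean on the diabetic arrays, and those of miR-133a and miR-133b differed by under 1 SD of either group.

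**Figure D1:**
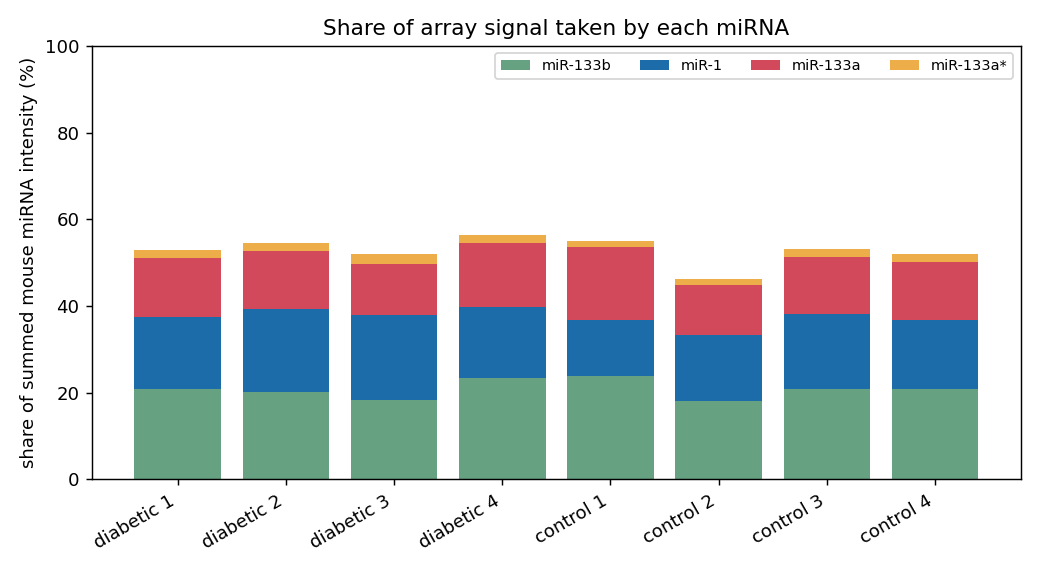
Stacked bars give, for each of the 4 diabetic and 4 control arrays, the percentage of summed mouse miRNA intensity taken by miR-133b, miR-1, miR-133a and miR-133a*, on an axis from 0 to 100%. The stacks reach 51.9% to 56.3% on the diabetic arrays and 46.2% to 54.9% on the control arrays.

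The comparison of the groups asks whether muscle of diabetic mice holds other levels of these strands than muscle of control mice. No strand passed the test. In whole muscle, fewer cells of a type and less RNA per cell cannot be told apart. In limma, 0 of the 4 had an adjusted p under 0.05, over 126 tested miRNAs of which 4.76% were called, 6 higher and 0 lower on the diabetic arrays. No strand passed at an unadjusted p under 0.05 either, where limma had 8 higher and 13 lower among the 126. The log2 differences of all 4 were positive, with a median of 0.23 against −0.06 over all tested miRNAs, of which 46% were positive. Over the 95 miRNAs detected on all 8 arrays, as these 4 were, the median was 0.05. The sign held under every alternative for miR-1 and miR-133a* and changed under some for miR-133a and miR-133b. Alternatives of filter, variance model and replicate block cannot change a difference, so the sign under them was fixed in advance.

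**Figure D2:**
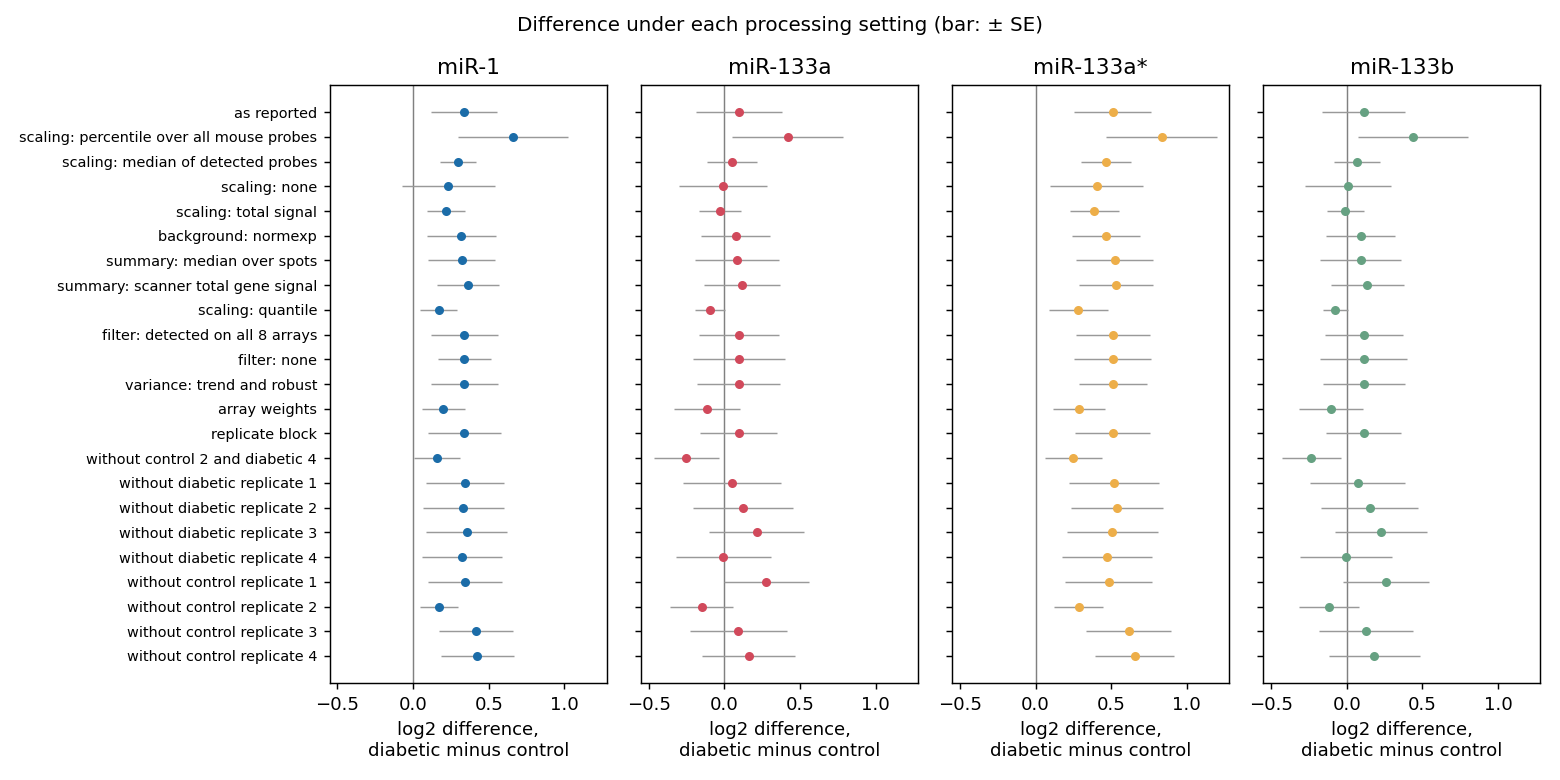
For each strand, points give the log2 difference between diabetic and control arrays under the reported processing (top) and 22 alternatives, with bars of ± 1 SE and a line at 0. miR-1 stays between 0.16 and 0.66 and miR-133a* between 0.25 and 0.83, while miR-133a and miR-133b fall on both sides of 0.

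miR-1, which pairs with the messenger RNAs of HDAC4 and other genes that hold back muscle differentiation, had relative log2 levels of 4.94, 4.98, 4.91 and 4.996 on diabetic 1 to 4. On control 1 to 4 its levels were 4.63, 4.11, 4.85 and 4.88. The lowest diabetic array, diabetic 3, was thus above the highest control array, control 4, by a few hundredths. Groups without overlap, in either direction, were seen for 11 of the 126 tested miRNAs (8.73%). The mean level was 4.96 ± 0.04 on the diabetic arrays and 4.62 ± 0.35 on the control arrays (SD, n = 4). The difference was 0.34 (SE 0.22, 95% interval −0.14 to 0.82, limma adjusted p = 0.518), a 1.26-fold higher level with an interval from 0.908 to 1.76. Without control 2, the lowest array, the difference was 0.17.

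The separation of miR-1 depended on how the levels were built. Of 8 ways of building the levels it was found in 2, the one reported and normexp background correction. With each array divided by its total signal, 2 of 4 diabetic arrays exceeded the highest control array, and with no scaling 3 of 4 did. Before scaling the intensity of miR-1 was 11046, 15088, 12445 and 7005 on diabetic 1 to 4. It was 7622, 10703, 9700 and 9608 on control 1 to 4. The unscaled values overlapped through diabetic 4, the dimmest array, which had the lowest intensity of the 8.

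miR-133a* had relative log2 levels of 1.72, 1.66, 1.75 and 1.85 on diabetic 1 to 4. Its levels on control 1 to 4 were 1.15, 0.56, 1.55 and 1.68. The groups overlapped, since control 4 lay above diabetic 2, and the other 3 diabetic arrays exceeded every control array. In 3 of the 8 ways of building the levels the groups of miR-133a* did not overlap, namely scaling by the median of detected probes, normexp and the scanner's total gene signal. Groups without overlap were then seen for 19%, 7.94% and 11.1% of the tested miRNAs. For miR-133a and miR-133b the groups overlapped in all 8. The mean was 1.75 ± 0.08 on the diabetic arrays and 1.24 ± 0.50 on the control arrays (SD, n = 4). This was the largest difference of the 4 strands, 0.51 (SE 0.25, 95% interval −0.05 to 1.07, limma adjusted p = 0.383), or 1.42-fold with an interval from 0.967 to 2.10. Without control 2 the difference was 0.28.

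miR-133a, the guide strand opposite to miR-133a* and a repressor of serum response factor, had levels of 4.68, 4.46, 4.19 and 4.85 on diabetic 1 to 4. On control 1 to 4 it had levels of 5.001, 3.71, 4.44 and 4.65. The diabetic values lay inside the range of the control values, whose highest and lowest were control 1 and control 2. Its mean was 4.55 ± 0.28 on the diabetic arrays and 4.45 ± 0.54 on the control arrays (SD, n = 4), a difference of 0.09 (SE 0.28, 95% interval −0.53 to 0.72, limma adjusted p = 0.879). The interval allows a 1.64-fold rise and a fall to 0.695-fold. The difference was −0.15 without control 2, 0.28 without control 1 and −0.0058 without diabetic 4.

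miR-133b, made from the Lincmd1 transcript, had levels of 5.29, 5.05, 4.82 and 5.51 on diabetic 1 to 4. The levels on control 1 to 4 were 5.50, 4.36, 5.10 and 5.27. Diabetic 4 and control 1 were the highest arrays, and control 2 the lowest, as for miR-133a. The mean was 5.17 ± 0.30 on the diabetic arrays and 5.06 ± 0.49 on the control arrays (SD, n = 4), a difference of 0.11 (SE 0.27, 95% interval −0.49 to 0.71, limma adjusted p = 0.869). Without control 2 it was −0.12, and without control 1 it was 0.26.

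**Figure D3:**
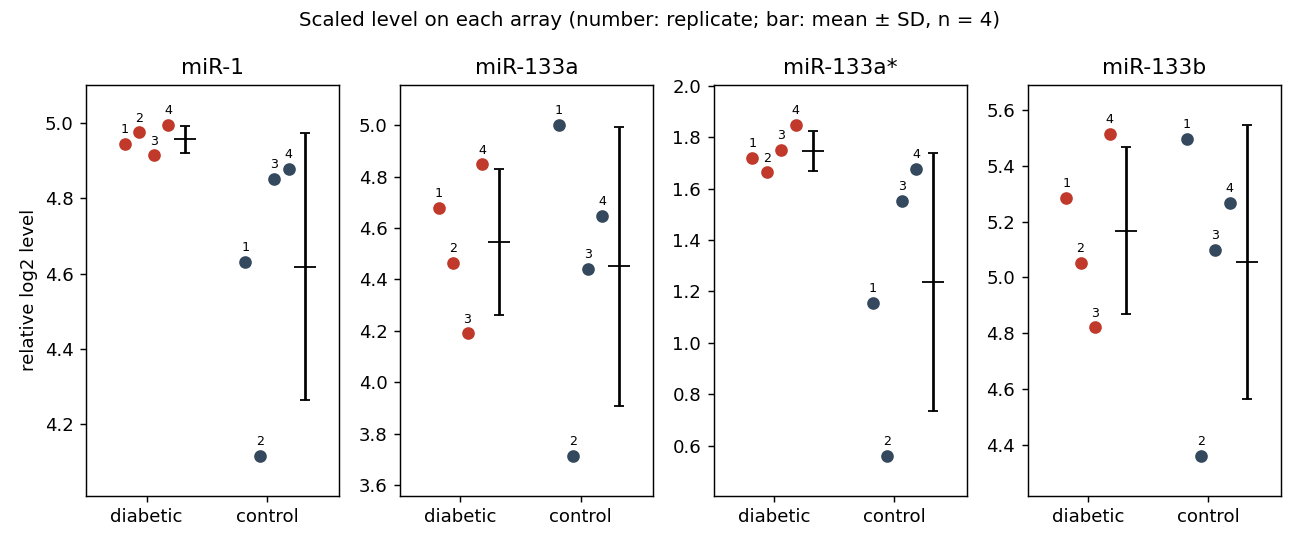
Each panel gives the relative log2 level of 1 strand on the 4 diabetic arrays (left, red) and the 4 control arrays (right, dark), with the replicate number above each point and the mean ± SD (n = 4) as a bar, on an axis of its own. Control 2 is the lowest point of every panel, and the diabetic points of miR-1 lie between 4.91 and 4.996.

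Each strand was read by 2 probes, a dimmer and a brighter one. For miR-1 the dimmer probe A_54_P2257 gave 0.46 (SE 0.22, limma adjusted p = 0.34) and the brighter A_54_P2258 gave 0.33 (SE 0.22, limma adjusted p = 0.581). miR-133a* had 0.58 on A_54_P1058 and 0.50 on A_54_P1059. For miR-133a the values were 0.13 on A_54_P2299 and 0.09 on A_54_P3683, and miR-133b had 0.11 on both of its probes. These differences come from a fit of 207 probes, of which 4.83% were called and 0 of these 8. The files mark spots whose value was scaled up from the scan at low gain, and 85 of the 588 spots used (14.5%) were of this kind. They were 55 spots of the brighter probe of miR-133b, 29 of that of miR-1 and 1 of that of miR-133a. The diabetic arrays had 50 of them and the control arrays 35, with 0 on diabetic 4. The balance between groups differed by strand. The brighter probe of miR-1 had 7, 9, 9 and 0 such spots on diabetic 1 to 4. Its counts on control 1 to 4 were 0, 4, 0 and 0. The brighter probe of miR-133b had 9, 8, 7 and 0 on diabetic 1 to 4, and 8, 8, 7 and 8 on control 1 to 4. The 5 probes with no such spot included the dimmer one of miR-1. Probes were averaged as intensities before log2, so the brighter probe made up most of each strand's level. For miR-1 the median intensity over the arrays was 18897 on the brighter and 1506 on the dimmer probe. The part of low-gain reading in the differences was not tested.

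From array to array the strands varied in 2 pairs. Across the 8 arrays, the 5 tested miRNAs whose log2 level followed miR-1 most closely were miR-133a* (Pearson r = 0.986), miR-30a (0.984), miR-22 (0.972), miR-30e (0.969) and miR-30a* (0.958). The 5 nearest to miR-133a were miR-133b (0.992), miR-378* (0.970), let-7d (0.956), miR-361 (0.947) and miR-99a (0.939). These are descriptions over 8 arrays that share 1 scaling, and they say nothing of shared control. The opposite strands were not the closest. For miR-133a* and miR-133a r was 0.547 (Spearman's rho 0.262), and miR-133a stood at place 47 among the 125 other miRNAs ranked by likeness to miR-133a*. miR-1 and miR-133a, whose hairpins Mir1a-1 and Mir133a-2 lie in the same host gene, had r = 0.615 (rho 0.333). The arrays read mature strands and do not tell which hairpin or host gene a strand came from.

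Control 1 and control 2 were the arrays farthest from the median of miR-1, and much of its likeness rested on them. Without them r between miR-1 and miR-133a* was 0.740 over the other 6 arrays, while r between miR-133a and miR-133b was 0.992. For miR-30a, miR-22 and miR-30e the r with miR-1 was then 0.644, 0.515 and 0.236, and for miR-30a* it was −0.233. miR-133a and miR-133b differ by few bases and share their seed, and how far their probes read each other's target was not tested. The closeness of these 2 and cross-reading of their probes cannot be told apart here.

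Ratios within an array do not depend on how arrays are scaled against each other, so 3 were compared. The log2 ratio of miR-1 to miR-133a was 0.26, 0.51, 0.72 and 0.15 on diabetic 1 to 4. It was −0.37, 0.40, 0.41 and 0.23 on control 1 to 4. The ratio was negative on control 1 alone, and the other control arrays lay inside the diabetic range. The means were 0.41 ± 0.26 on the diabetic arrays and 0.17 ± 0.37 on the control arrays (SD, n = 4), a difference of 0.24 (two-sided exact permutation p = 0.343, adjusted over the 3 ratios 0.514). Without control 1 the difference was 0.06.

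The log2 ratio of miR-133a* to miR-133a, the balance of the 2 opposite strands as these probes report it, was −2.96, −2.80, −2.44 and −3.00 on diabetic 1 to 4. On control 1 to 4 it was −3.85, −3.15, −2.89 and −2.97. The groups overlapped, with control 1 lowest. The means were −2.80 ± 0.25 on the diabetic arrays and −3.22 ± 0.44 on the control arrays (SD, n = 4), a difference of 0.42 (two-sided exact permutation p = 0.143, adjusted 0.429). Without control 1 it was 0.20.

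The log2 ratio of miR-133b to miR-133a was the steadiest of the 3. It averaged 0.62 ± 0.03 on the diabetic arrays and 0.60 ± 0.07 on the control arrays (SD, n = 4), a difference of 0.018 (two-sided exact permutation p = 0.8, adjusted 0.8). The lowest p that 4 against 4 arrays can give is 0.0286.

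The scaled levels varied with array brightness. Over the 8 arrays r between scaled level and brightness was −0.840 for miR-133a and −0.890 for miR-133b. These became −0.651 and −0.712 without control 2 and diabetic 4, the arrays farthest in brightness. For miR-1 and miR-133a* r was −0.600 and −0.605 over 8 arrays, and 0.725 and 0.570 without these 2. Over all tested miRNAs the median r was −0.389. A scaled level is the unscaled one minus brightness, so part of such a relation is built in. Unscaled intensity spanned 1.68-fold for miR-133a and 1.59-fold for miR-133b, against 2.15-fold for miR-1, 2.22-fold for miR-133a* and 2.82-fold for brightness itself. The part of brightness in the group differences was not tested. Without control 2 and diabetic 4 the difference of miR-1 was 0.16 and that of miR-133a* 0.25, while miR-133a had −0.25 and miR-133b −0.23.

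**Figure D4:**
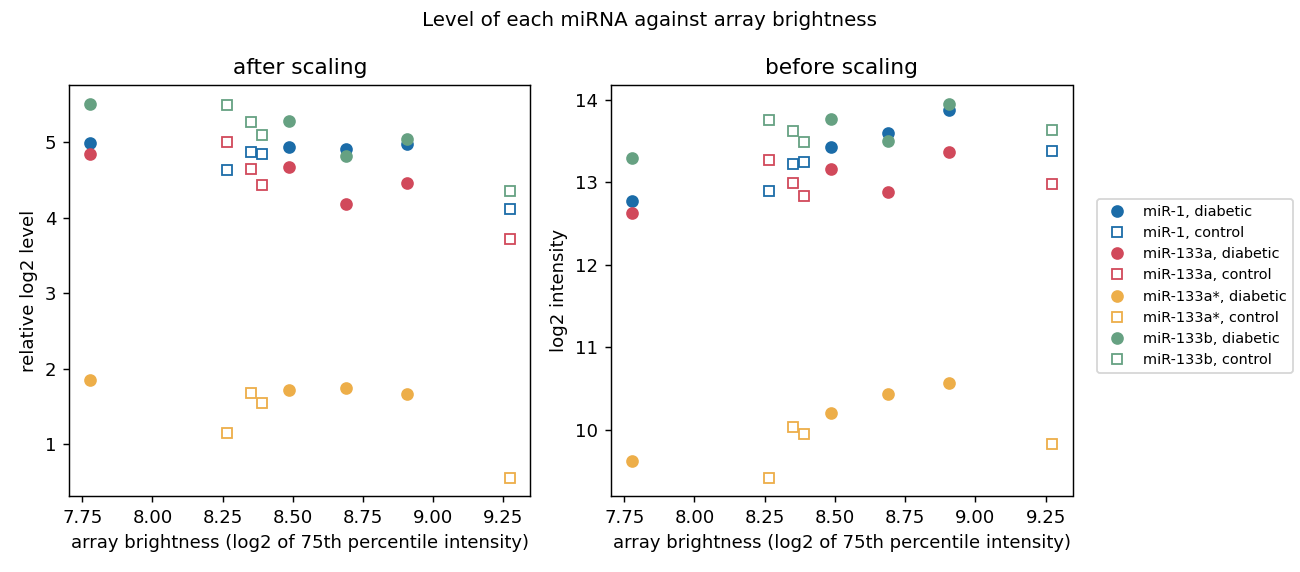
The level of each strand is plotted against array brightness for diabetic (filled circles) and control arrays (open squares), after scaling on the left and as unscaled log2 intensity on the right. After scaling, miR-133a and miR-133b lie lower on brighter arrays, with r of −0.840 and −0.890, and before scaling their intensities span 1.68-fold and 1.59-fold while brightness spans 2.82-fold.

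The spread of the strands between arrays of a group depended on scaling. After scaling, the SD of the log2 level was smaller on the diabetic arrays for 4 of 4 strands and for 113 of all 126 tested miRNAs, with a median SD of 0.23 on the diabetic and 0.43 on the control arrays. miR-1 had a scaled SD of 0.04 on the diabetic and 0.35 on the control arrays, and miR-133a* 0.08 on the diabetic and 0.50 on the control arrays. For miR-133a and miR-133b the scaled diabetic SDs of 0.28 and 0.30 were above the median of all miRNAs. With no scaling the order turned for all 4 strands. The unscaled SD was 0.47 on the diabetic and 0.21 on the control arrays for miR-1, and 0.42 on the diabetic and 0.27 on the control arrays for miR-133a*. It was 0.33 on the diabetic and 0.18 on the control arrays for miR-133a, and 0.29 on the diabetic and 0.11 on the control arrays for miR-133b. Of the 126 tested miRNAs, 46 then had the smaller SD on the diabetic arrays. In the other 7 ways of building the levels, each with a scaling step, the diabetic SD was the smaller one for 4 of 4 strands. The difference in spread was not tested.

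**Figure D5:**
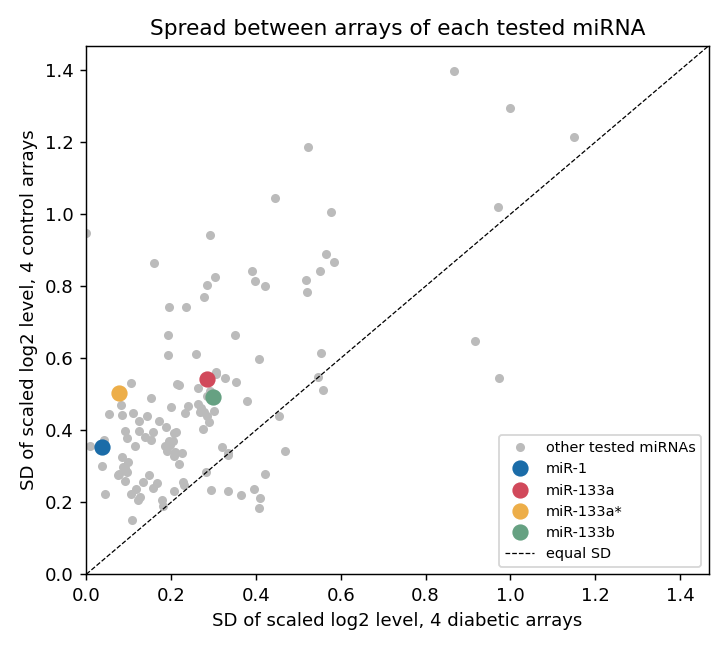
Each point is 1 of the 126 tested miRNAs, with the SD of its scaled level over the 4 diabetic arrays across and over the 4 control arrays up, in log2 units, and the 4 strands are coloured. All 4 lie above the dashed line of equal SD, as do 113 of the 126, and miR-1 has a diabetic SD of 0.04.

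Of 5 other muscle miRNAs (miR-206, miR-208a, miR-208b, miR-499 and miR-486), 3 were tested and 0 passed in either direction. miR-206, which is transcribed with miR-133b and rises in regenerating muscle, had levels of 0.0093, −0.014, 0.20 and −1.75 on diabetic 1 to 4. On control 1 to 4 it had levels of 0.12, 0.73, 1.42 and 1.497. Its difference of −1.33 (SE 0.44, limma adjusted p = 0.132) had the opposite sign to the 0.11 of miR-133b, and the difference between these 2 was not tested. Without diabetic 4, the lowest array, the difference of miR-206 was −0.87. The median log2 difference of the 3 tested miRNAs was −0.53. The summed relative level (linear) of the 5 was 0.890 to 1.67 on the diabetic arrays and 1.83 to 3.29 on the control arrays. Most of the sum was miR-206 on every array but diabetic 4. In the reported scaling the sums did not overlap, with the diabetic arrays lower, at most 1.67 against at least 1.83. Of single tested miRNAs, 11 of 126 (8.73%) had groups without overlap in this scaling, in either direction. The levels of miR-206 alone did overlap, with diabetic 3 at 0.20 above control 1 at 0.12. The sum was taken under this scaling only and was not tested. Among marker miRNAs of other cell types, 0 of 3 tested leukocyte, 0 of 2 erythroid, 0 of 3 stromal, 0 of 2 liver, 0 of 1 endothelial and 0 of 1 smooth muscle markers passed. The summed relative level (linear) of the leukocyte markers was 0.258 to 0.715 on the diabetic arrays and 0.429 to 2.11 on the control arrays. The erythroid markers summed to 0.962 to 1.78 on the diabetic arrays and 1.20 to 2.78 on the control arrays, and the stromal markers to 0.361 to 0.417 on the diabetic arrays and 0.376 to 0.783 on the control arrays. The skeletal muscle markers, nearly all of whose sum is miR-1, miR-133a and miR-133b themselves, summed to 78.3 to 107 on the diabetic arrays and 53.0 to 104 on the control arrays. Without these 3 strands they summed to 0.873 to 1.65 on the diabetic arrays and 1.82 to 3.28 on the control arrays. This is the sum of the 5 above without miR-208a, which was detected on no array, and not a second result. The endothelial markers summed to 1.80 to 2.47 on the diabetic arrays and 1.603 to 2.67 on the control arrays, the smooth muscle markers to 0.142 to 0.21 on the diabetic arrays and 0.125 to 0.224 on the control arrays, and the liver markers to 0.0687 to 0.125 on the diabetic arrays and 0.0475 to 0.187 on the control arrays. The neural markers were at the floor on every array. The part of other cells in the levels of miR-1 and miR-133 was not tested.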

How the data were processed

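The files hold spot intensities that the authors deposited as read by Agilent Feature Extraction 10.5, per the file headers: background-subtracted processed intensities with no scaling between arrays, raw medians, a total intensity per miRNA, and flags of 0 or 1 (other deposited columns) for outliers, saturation, low-gain reading and detection. The probe design names mm9, per the file headers. The labels give no normalization or test.

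Outlier spots were dropped and spots averaged per probe. A probe was detected where 50% of spots were well above background. With 12.4% of probe values detected, the divisor of an array was the 75th percentile of the 152 probes that were detected on every one of the 8 arrays. Probes of a miRNA were averaged, raised to a floor of 0.0162 and converted to log2; none of the 4 strands was at the floor. The 126 miRNAs detected on at least 4 arrays were fitted with limma 3.58.1 in R 4.3.3 (group as the single term) with Benjamini-Hochberg adjustment and a threshold of 0.05. Ratios had exact permutation tests (SciPy 1.17.1). Shares are of the summed positive probe means of all 567 mouse miRNAs. normexp used median signals, because mean signals are not among the columns, and an offset of 50.

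The number of arrays limits the precision. The members, lists and tests were chosen with earlier results of these data known. Named miRNAs are the 4 strands, the 5 most like miR-1 and the 5 most like miR-133a by Pearson correlation, and a list of other muscle miRNAs. Alternatives covered scaling, background, summary, filter, variance model, array weights, the replicate number as a block and arrays left out. Figures were drawn with matplotlib 3.10.9.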

Additional observations from a re-analysis of the deposited data

Results flagged for a closer look

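Of 30 sets of 4 values, each of 1 quantity over 1 group, 2 had a single array far from the other 3, where chance gives about 1 in 20. miR-206 on the diabetic arrays had its lowest level, −1.75, on diabetic 4, and the nearest of the others was −0.01, a gap of 0.888 of the range. Brightness on the control arrays had its highest value, 9.27, on control 2, and the nearest was 8.39, a gap of 0.875 of the range. None of the levels, shares and ratios of miR-1, miR-133a, miR-133a* and miR-133b was set apart in this way.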

How the results depend on the processing

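Under 22 alternatives none of the 4 strands passed the threshold. miR-1 and miR-133a* kept a positive difference in all 22, and their adjusted p ran from 0.151 to 0.998 and from 0.12 to 0.815. The filters, the other variance model and the replicate block cannot change a difference, so the sign under them was fixed in advance. miR-133a was negative with no scaling (−0.011), total signal (−0.027), quantile normalization (−0.093), array weights (−0.11) and without control 2 and diabetic 4 together (−0.25). miR-133b was negative with total signal (−0.0094), quantile normalization (−0.075), array weights (−0.11) and without those 2 arrays (−0.23). With 1 array left out, miR-1 had 0.17 to 0.43, miR-133a −0.15 to 0.28, miR-133a* 0.28 to 0.66 and miR-133b −0.12 to 0.26. The ratio differences then ran from 0.06 to 0.33 for miR-1 to miR-133a, 0.20 to 0.52 for miR-133a* to miR-133a and −0.019 to 0.035 for miR-133b to miR-133a, and the difference in summed share from 0.638 to 3.53 percentage points, against 2.41. With 3 against 4 arrays the exact test cannot go below 0.0571.

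Scaling by the 75th percentile of every mouse probe shifted the median difference of the tested miRNAs to 0.26, and miR-1 to 0.66, miR-133a to 0.42, miR-133a* to 0.83 and miR-133b to 0.44. Relative to that median the 4 differences were 0.40, 0.15, 0.57 and 0.17, as in the reported scaling. This match is built in and is no check, because a new divisor per array shifts the strands and the median alike. Quantile normalization is not such a shift. Its median difference was 0.08, and relative to it the strands, in the same order, stood at 0.088, −0.173, 0.203 and −0.155.

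Over all tested miRNAs, 6 were called higher and 0 lower. The higher calls numbered 0 with no scaling, 2 with no filter, 3 without control 2 and diabetic 4, and 2 to 7 with 1 array left out. The lower calls numbered 1 with the percentile over all probes, the total gene signal and array weights, 2 with the median of detected probes, quantile normalization and the filter for all 8 arrays, 3 with total signal and normexp, and 0 to 3 with 1 array left out. The replicate numbers are not stated to pair animals, so the reported fit had no block. They were also the slide columns, so replicate and column cannot be told apart. Same-numbered arrays deviated from their group means with correlations of 0.21, 0.08, 0.51 and −0.29, which do not decide whether they are pairs. With replicate as a block the calls were 7 higher and 3 lower, the differences of the 4 strands were the same and none passed. In the probe fit 10 probes passed, 3 to 12 with 1 array left out and 24 with the replicate block, alternatives chosen after seeing the data. The cause of these shifts was not tested.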
